A study of Mus musculus with 6 samples.

Results

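The genes described here are 10 members of the Bcl-2 family, the proteins that decide whether a cell's mitochondria are opened in apoptosis: Bcl2, Bcl2l1, Mcl1, Bax, Bak1, Bid, Bad, Bcl2l11, Bbc3 and Pmaip1. A probe set, the group of array probes that reads a transcript, counted as a member when its only gene symbol in the platform annotation was one of these. This gave 9 of the 10 genes, among 18193 genes on the array, and 29 of 45037 non-control probe sets: 6 for Mcl1, 5 each for Bcl2 and Bcl2l11, 4 for Bcl2l1, 3 for Bid, 2 each for Bak1 and Bad, and 1 each for Bbc3 and Pmaip1. Bax was not analysed here. Levels were read on 6 expression arrays of red cell precursors from the livers of Balb/C mouse fetuses, 3 arrays of the S1 subset and 3 of the more mature S3 subset. Sorting by flow cytometry used antibodies to the transferrin receptor CD71, to the red cell antigen Ter119 and to markers of other blood lineages, and each subset was collected on 3 days. No group carries a transgene, deletion or drug treatment in the labels. By the stage label S1 came from embryos of day 12.5 and S3 from day 13.5, but the source label has 13.5 for all arrays. If the stage label is right, subset and embryo age cannot be told apart.

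Family members fall into 3 roles. Bcl2, Bcl2l1 (whose main product is Bcl-xL) and Mcl1 hold apoptosis back. Bax and Bak1 are the effectors that form pores in the outer mitochondrial membrane, which releases cytochrome c. Bid, Bad, Bcl2l11 (Bim), Bbc3 (Puma) and Pmaip1 (Noxa) are BH3-only proteins, which carry only the BH3 segment of the family and either bind and neutralise the protective members or activate the effectors. In red cell precursors, erythropoietin acts through its receptor, Jak2 and Stat5 to raise Bcl-xL, and it keeps Bim low. Loss of Bcl-xL or of Mcl1 in mice impairs red cell formation.

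Of 8 marker lists, that of erythroid genes gave the highest summed signal. All 12 measured erythroid markers were above background on every array, background being the 95th percentile of 27 bacterial control probe sets on the same array (log2 1.01 to 1.74). The summed linear signal of these markers was 6856 to 9183 in S1 and 16560 to 19860 in S3. Liver cells left traces too: 6 of 7 measured hepatocyte markers were above background on every array, with a summed signal of 276 to 362 in S1 and 249 to 1084 in S3, none of them called. Their part in the members' readings was not tested. The arrays differed in how far signal reached toward the 5' end of transcripts: the actin 5' control read below the 3' control by a log2 difference of -2.59 to -2.08 on S1 replicates 1 and 2 and S3 replicate 2 (short arrays), and of -0.56 to -0.45 on S1 replicate 3 and S3 replicates 1 and 3 (long arrays). Each subset holds both kinds. Of 27022 probe sets bright enough to test, 436 were called higher in S3 and 1801 lower by limma at a Benjamini-Hochberg adjusted p under 0.05, which is 1.61% and 6.66%. Higher calls made up 19.5% of all calls, against 39.5% with median centring, 43.7% with quantile normalization and 38.0% with median centring and short and long arrays as a block. The median log2 change was -0.24, and centring each array on its median brought it to -0.01.

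Sequence before the transcript starts of the members with called probe sets is shown because these genes, Bcl2l1 and Bid, moved in opposite directions (below), and Gata1, the main erythroid GATA factor, read near log2 10 in both subsets (10.06 with an SD of 0.22 over the 3 S1 arrays and 9.94 with 0.17 over the 3 S3 arrays). RefSeq (build GRCm38.p6) gave 15 starts for 9 of the 10 genes, Pmaip1 not being used here. In the 250 bases before each start, the letters GATA, searched on both strands, occurred in 3 of the 15, against 53.6% of all 32851 promoters of that length. The 30 bases around the match are given 5' to 3' on the gene's strand, with the match in capitals (TATC is GATA on the other strand).
Bcl2l1, chr2:152828513-152828542, minus strand: attgtgacccaaaGATAaagagagcagagg
Bid, chr6:120916849-120916878, minus strand: cggagggcggggcTATCacaggggcggggc
The first base of the match lay 40 bases before this start of Bcl2l1 and 41 before that of Bid. The remaining match was in the Bax window, 207 bases before its start. The same Bcl2l1 window held no CG dinucleotide, as in 7.87% of all promoters, while windows before the remaining Bcl2l1 starts held 11 and 12, that of Bid 18 and that of Bcl2 36, against a median of 6. The letters TTCNNNGAA, the core of sites bound by STAT factors, occurred in none of the 15 windows and in 7.02% of all promoters. Such matches describe the letters of these windows, and binding was not measured.

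**Figure D1:**
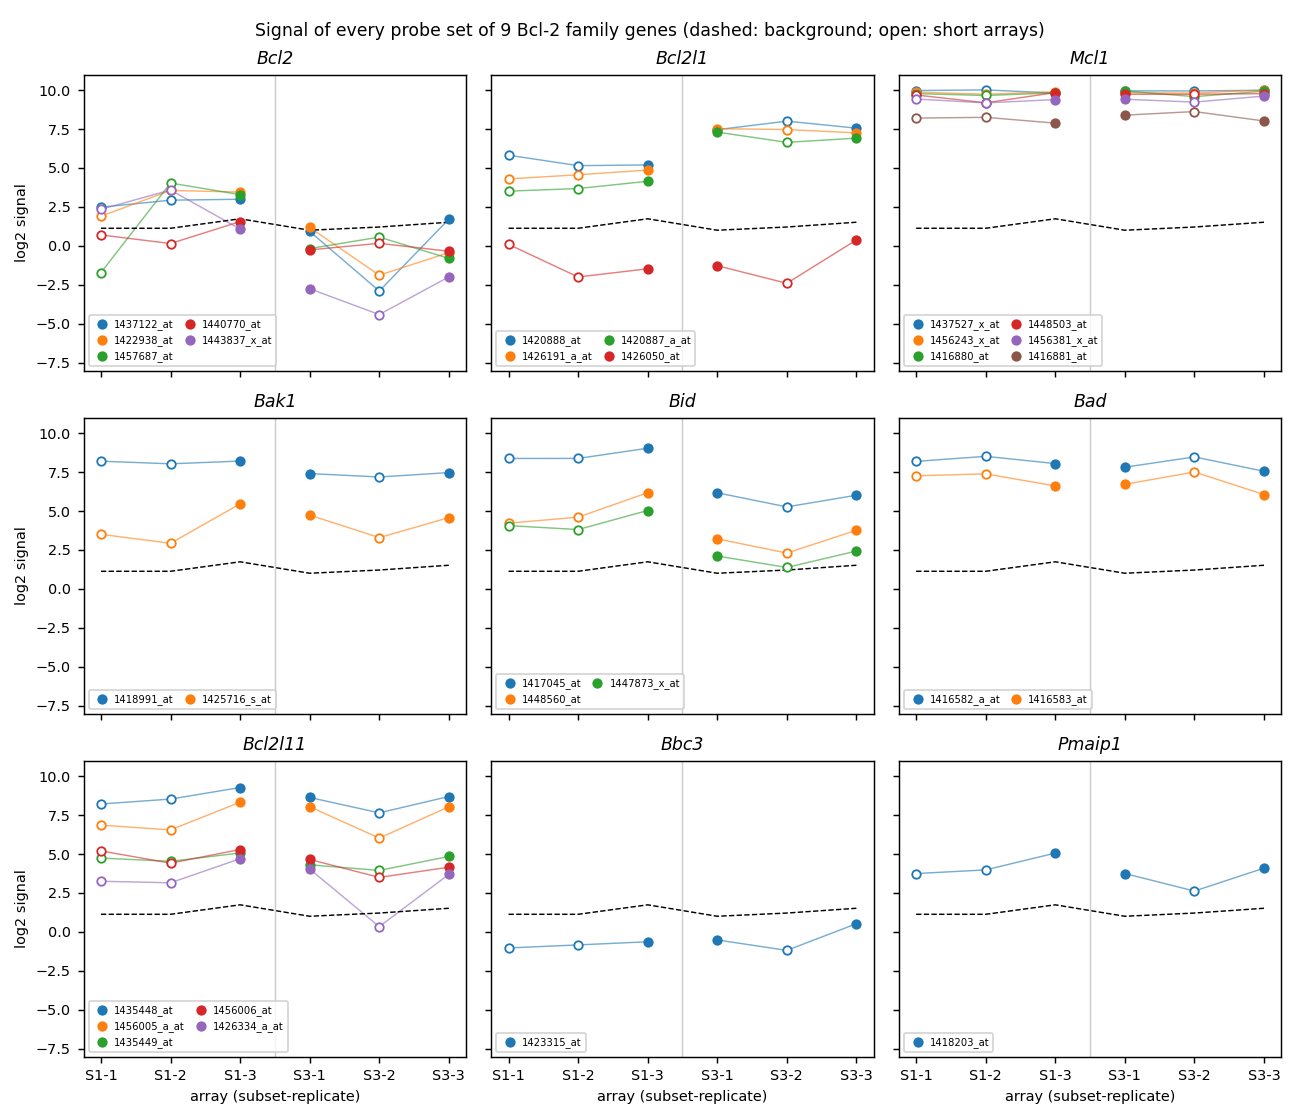
Log2 signal of all 29 probe sets of 9 genes on each of the 6 arrays (x axis: subset and replicate). Filled points are long arrays, open points short arrays, the dashed line is background, and thin lines only link the values of a probe set within a subset. The 3 bright Bcl2l1 probe sets lie higher on every S3 array than on any S1 array, those of Bid lower, and those of Mcl1 overlap between the subsets.

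Bcl2l1 was higher in S3 than in S1 by 4.88-fold to 9.03-fold over its 3 bright probe sets. Bid was lower by 3.75-fold to 6.86-fold over its 3, of which 2 passed the test. Mcl1 gave high signals that overlapped between the subsets. Bcl2 was dim in S1 and near or under background in S3, and Bcl2l11, Bad and Pmaip1 overlapped between the subsets. Of the 29 probe sets, 24 passed the filter on dim signal (a mean over the 6 arrays beyond the array's 40th percentile). Of these 24, 3 were called higher, all of Bcl2l1 (1.61% of all tested probe sets were), and 2 were called lower, both of Bid (6.66% of all). The other 19 were not called. Without overlap between the 3 S3 and the 3 S1 arrays, 3 member probe sets lay higher and 6 lower, against 5.39% and 22.9% of all tested probe sets. The 3 were of Bcl2l1, and the 6 were 3 of Bid, 2 of Bcl2 and 1 of Bak1. Those of Bcl2 passed the filter only through their S1 signals. The median log2 change of the 24 was -0.31. Probe sets of a gene read the same transcripts and are not independent.

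Bcl2l1 carried the only called rise among the members. Its brightest probe set, 1420888_at, read 5.82, 5.15 and 5.20 on S1 replicates 1 to 3 and 7.46, 8.01 and 7.56 on S3 replicates 1 to 3 (log2 signal). Every S3 array was above every S1 array, with a gap wider than the spread inside either subset. The log2 change was 2.29 ± 0.38 (SE, limma adjusted p = 0.0139), with a 95% interval of 1.40 to 3.17. The probe set 1426191_a_at read 4.30, 4.57 and 4.87 in S1 and 7.52, 7.47 and 7.25 in S3. It rose by 2.84 ± 0.38 (adjusted p = 0.00750). The probe set 1420887_a_at read 3.51, 3.68 and 4.15 in S1 and 7.30, 6.65 and 6.92 in S3, and rose by 3.17 ± 0.43 (adjusted p = 0.00760). These 3 readings ordered the subsets alike on every array. The fourth, 1426050_at, was under background on all 6 arrays (-2.40 to 0.38) and was not tested. Short and long arrays alone gave log2 changes of 2.52 and 2.31 for 1420888_at, 3.04 and 2.52 for 1426191_a_at and 3.05 and 2.96 for 1420887_a_at. 1420888_at was not called without S1 replicate 2, S3 replicate 1 or S3 replicate 3 (adjusted p = 0.0675, 0.0548 and 0.0707), while the others were called in all 16 other fits run for them.

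Platelets and megakaryocytes are cells in which Bcl-xL is also a main survival protein. Of 8 listed markers of these cells, 7 were measured. All 7 were above background on at least 1 S1 array, and 6 on at least 1 S3 array. On every S1 array 6 were above background, and on every S3 array 6. The summed linear signal was 88.5 to 184 in S1 and 342 to 357 in S3. Without Pf4, the leading gene of the sum, it was 66.3 to 71.8 in S1 and 124 to 131 in S3. The mean log2 signal was higher in S3 for 5 of the 7 (Pf4 by 1.84) and lower for 2 (Gp5, at -2.26, was above background on no S3 array), and no marker of that list was called. Their part in the Bcl2l1 reading was not tested. RNA of sorted cells was read in bulk, so that fewer cells of a type and less RNA per cell cannot be told apart for any gene here.

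Mcl1 encodes a short-lived protector. Its brightest probe set, 1437527_x_at, read 9.97, 10.01 and 9.81 on the S1 arrays and 9.95, 9.95 and 9.99 on the S3 arrays. The subsets overlapped and the log2 change was 0.03 ± 0.11 (SE, adjusted p = 0.930), with a 95% interval of -0.24 to 0.30, or 0.849-fold to 1.23-fold. The 6 probe sets gave changes of 0.03 to 0.23, none called, and the widest interval, that of 1416881_at, ran from 0.779-fold to 1.77-fold. With arrays centred on their medians the 6 changes were 0.26 to 0.46, also not called. With short and long arrays as a block added to this centring they were 0.44 to 0.81, again not called. Mean signals of the 6 lay at percentiles 91.1 to 98.0 of all probe sets. The highest gene reading of an array was 11.44 to 11.66.

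Bcl2 gave dim signals, with the mean of its 2 tested probe sets at percentiles 42.6 and 42.0. 1437122_at read 2.48, 2.93 and 2.99 in S1 and 0.93, -2.90 and 1.71 in S3, where only replicate 3 was above background. 1422938_at read 1.90, 3.56 and 3.46 in S1 and 1.18, -1.88 and -0.43 in S3, where only replicate 1 was above background. Every S3 value was below every S1 value for both, with the wider spread in S3. The log2 changes were -2.89 ± 1.15 (SE, adjusted p = 0.191) and -3.35 ± 0.91 (adjusted p = 0.0656), and neither was called. Raised to background, they were -1.49 and -1.67. Without S3 replicate 2 the change of 1437122_at was -1.48 (adjusted p = 0.242). Of the 3 dimmer, untested probe sets, 1443837_x_at exceeded background on 2 S1 arrays and no S3 array, and was at least 2.14-fold lower in S3. With no filter on dim signal it was called lower (-5.39, adjusted p = 0.0210), but that size and call rest on S3 signals under background. Raised to background, its change was -1.31. 1457687_at, likewise above background on 2 S1 arrays alone, read -1.72, 4.03 and 3.29 in S1 and -0.17, 0.56 and -0.80 in S3. Its subsets overlapped. 1440770_at was under background throughout. 1422938_at was called with median centring (-3.12, adjusted p = 0.0407). Both tested probe sets were called with short and long arrays as a block (-3.64 and -3.85, adjusted p = 0.0207 and 0.00991). Both passed the filter on dim signal (a mean of log2 1.12) only through S1. Their means were 2.80 and 2.97 in S1 and -0.08 and -0.38 in S3. Short and long arrays alone gave -5.61 and -1.67 for 1437122_at and -4.61 and -3.08 for 1422938_at. The only short S3 array, replicate 2, was under background for both. No separate support for a fall is drawn from these calls.

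Lymphocytes are a cell type rich in Bcl2, and of 7 measured lymphocyte markers 4 were above background on some S1 array and 3 on some S3 array. Their summed linear signal was 83.3 to 177 in S1 and no more than 23.1 in S3. Ptprcap held most of it (7.35, 6.92 and 6.06 in S1, and 3.63, 3.91 and 3.55 in S3) and was called lower (-3.08, adjusted p = 0.0114). Without Ptprcap the sum was 9.86 to 16.4 in S1 and 8.09 to 10.2 in S3, and these ranges overlapped. Among defining T and B cell genes, Cd3g was above background on all 3 S1 and 2 S3 arrays and Cd79a on 2 S1 arrays and no S3 array. Ighm was above background on all 6 arrays, and Cd3e, Cd79b and Il7r on none. Their part in the Bcl2 reading was not tested.

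Bak1 was the only effector read. Its bright probe set, 1418991_at, read 8.20, 8.03 and 8.21 in S1 and 7.41, 7.18 and 7.47 in S3. All S3 arrays were lower, and the spread within each subset was small. The log2 change was -0.79 ± 0.25 (SE, adjusted p = 0.104), not called. Short and long arrays alone gave -0.93 and -0.77, and the fit with them as a block called it lower (-0.85 ± 0.15, adjusted p = 0.00407), but not with median centring added (-0.40, adjusted p = 0.398). With median centring it was -0.56 (adjusted p = 0.410). The dimmer 1425716_s_at overlapped (2.93 to 5.46 in S1 and 3.29 to 4.74 in S3) and went the opposite way at 0.24 ± 0.76 (adjusted p = 0.915). Its sign turned with that block (-0.36).

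Bid, which links death receptors to mitochondria once caspase 8 has cleaved it, was the only member called lower in the fit without a block. The tested Bcl2 probe sets also lay lower on every S3 array but were not called in that fit. 1417045_at, its brightest probe set, read 8.37, 8.38 and 9.03 in S1 and 6.17, 5.26 and 6.01 in S3. The lowest S1 array lay above the highest S3 array by more than the range of either subset. It fell by 2.78 on the log2 scale (SE 0.38, adjusted p = 0.00787), or 6.86-fold, with a 95% interval of -3.65 to -1.90. It was called in all 17 other fits (adjusted p = 2.74e-05 to 0.0470). 1447873_x_at read 4.06, 3.81 and 5.03 in S1 and 2.11, 1.38 and 2.43 in S3, a log2 change of -2.33 ± 0.56 (adjusted p = 0.0456). It lost its call without any 1 of the 6 arrays (adjusted p = 0.0947 to 0.128) and with no filter (adjusted p = 0.0870). 1448560_at read 4.22, 4.61 and 6.18 in S1 and 3.22, 2.30 and 3.76 in S3. These did not overlap, and its change of -1.91 ± 0.67 was not called (adjusted p = 0.139). Within the short arrays the 3 changes were -3.11, -2.11 and -2.56 for 1417045_at, 1448560_at and 1447873_x_at, and within the long arrays -2.94, -2.69 and -2.76.

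Bcl2l11 encodes Bim, the BH3-only protein that erythropoietin restrains. Its brightest probe set, 1435448_at, read 8.21, 8.53 and 9.27 in S1 and 8.63, 7.64 and 8.69 in S3. The subsets overlapped, and in both of them the long arrays read higher than the short ones. The log2 change was -0.35 ± 0.38 (SE, adjusted p = 0.700). The 5 probe sets gave log2 changes of -1.01 to 0.12, none called, and all overlapped. With short and long arrays as a block the 5 changes were all negative, from -1.85 to -0.49, with 1435448_at (-0.67 ± 0.14, adjusted p = 0.00859) and 1426334_a_at (-1.85 ± 0.56, adjusted p = 0.0386) called lower. Under that block 28.2% of all tested probe sets were called lower and 4.16% higher, and the median of all was -0.46. With this block and median centring together, neither was called.

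Bad, Pmaip1 and Bbc3 are the remaining BH3-only genes. Bad, which growth factor signalling keeps inactive by phosphorylation, read 8.19, 8.51 and 8.05 in S1 and 7.81, 8.47 and 7.55 in S3 by 1416582_a_at. The subsets overlapped and the change was -0.30 ± 0.31 (SE, adjusted p = 0.670). Its other probe set gave -0.33 ± 0.46. Pmaip1, which neutralises Mcl1, read 3.75, 3.98 and 5.06 in S1 and 3.75, 2.62 and 4.09 in S3. The subsets overlapped, and the log2 change was -0.77 ± 0.60 (adjusted p = 0.547). With short and long arrays as a block it was called lower (-1.19 ± 0.38, adjusted p = 0.0443), but not with median centring added (-0.74, adjusted p = 0.321). Bbc3, a target of p53, was under background on all 6 arrays (-1.19 to 0.53) and was not tested.

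**Figure D2:**
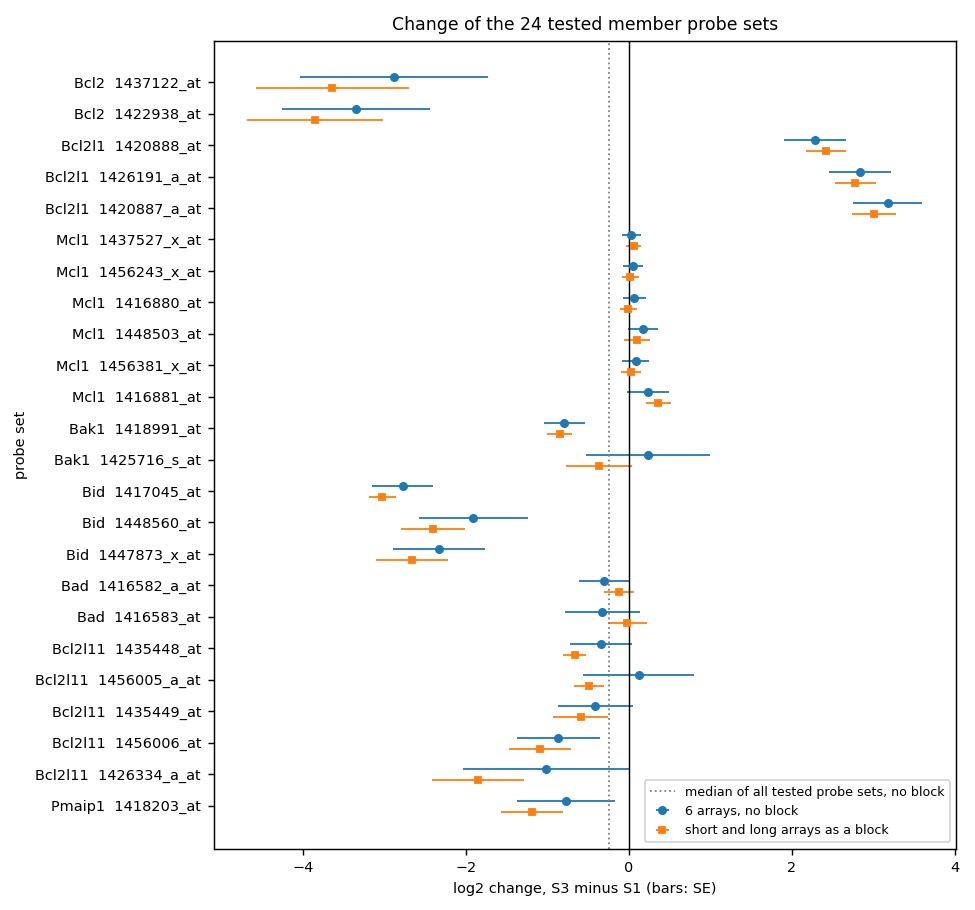
Log2 change, S3 minus S1, of the 24 tested probe sets (points; bars are SE), for the fit to 6 arrays and for the fit with short and long arrays as a block. The dotted line is the median of all tested probe sets, -0.24. Bcl2l1 lies between 2.29 and 3.17 and Bid between -2.78 and -1.91 without the block. Mcl1 lies between 0.03 and 0.23 without it and between -0.01 and 0.36 with it.

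With the block, 12 of the 24 member probe sets were called, 3 higher (all of Bcl2l1, where 4.16% of all were) and 9 lower (28.2% of all). The 9 were all 3 of Bid, both of Bcl2 (tested only through their S1 signals), 2 of Bcl2l11, 1418991_at of Bak1 and that of Pmaip1. By role, the 11 tested protector probe sets had 3 higher and 2 lower, the 2 effector probe sets 1 lower, and the 11 BH3-only probe sets 6 lower. With median centring added, 5 member probe sets were lower in place of 9, namely 2 of the protectors (Bcl2), 0 of the effectors and 3 of the BH3-only probe sets (all of Bid), and the 3 of Bcl2l1 stayed higher.

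The balance between protectors and their opponents was followed as the log2 signal of a protector minus that of an opponent on the same array, which does not depend on how the array was scaled. Probe sets differ in brightness, so that only its shift between subsets can be read, not its level. With the brightest tested probe set of each gene there were 15 pairs. Every S3 array lay above every S1 array for 7 pairs, 5 of Bcl2l1 and 2 of Mcl1. Each shift is the difference between the changes of its genes given above, and pairs share genes. The pairs are therefore not independent of each other or of those changes. No share over pairs of other genes is given beside this count. The pairs of Bcl2 rest on signals under background on 2 of the 3 S3 arrays, and their shifts are given as bounds. Relative to each of its 5 opponents, Bcl2l1 was higher on every S3 array. Against Bid, Bcl2l1 read -2.55, -3.23 and -3.84 in S1 and 1.29, 2.74 and 1.54 in S3. That is a shift of 5.06, or 33.4-fold, the widest of the 15, and it was 5.63 within the short and 5.25 within the long arrays. Against Bcl2l11, Bcl2l1 read -2.39, -3.38 and -4.07 in S1 and -1.17, 0.37 and -1.13 in S3. The shift was 2.63, or 6.20-fold. It was 3.08 against Bak1, 3.06 against Pmaip1 and 2.59 against Bad.

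Mcl1 relative to Bid was higher in S3 by 2.81 and relative to Bak1 by 0.82, without overlap. The latter was 0.39 with the mean over each gene's tested probe sets. Its shifts against Bad (0.33), Bcl2l11 (0.38) and Pmaip1 (0.81) had overlapping subsets. The Bcl2 signal was under background on 2 of the 3 S3 arrays, so that it was raised to background there. The values of these 2 arrays are upper bounds, while that of S3 replicate 3 was measured above background. So raised, Bcl2 was lower in S3 without overlap relative to Bad (-1.19), Bcl2l11 (-1.15) and Bak1 (-0.70), and overlapped relative to Pmaip1 (-0.72). As deposited, these shifts were -2.59, -2.54, -2.09 and -2.11, and without S3 replicate 2 they were -0.91, -1.47, -0.77 and -1.14. Relative to Bid it was -0.11 as deposited and 1.28 when raised, so that no direction can be read. With 3 arrays against 3, the exact permutation test (two-sided) cannot go below p = 0.10. The 7 pairs of Bcl2l1 and Mcl1 without overlap reached that smallest p, and so did 4 pairs of Bcl2 as deposited. Their adjusted p was 0.136 over the 15 pairs, a value that counts these Bcl2 pairs, so that none passes 0.05.

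**Figure D3:**
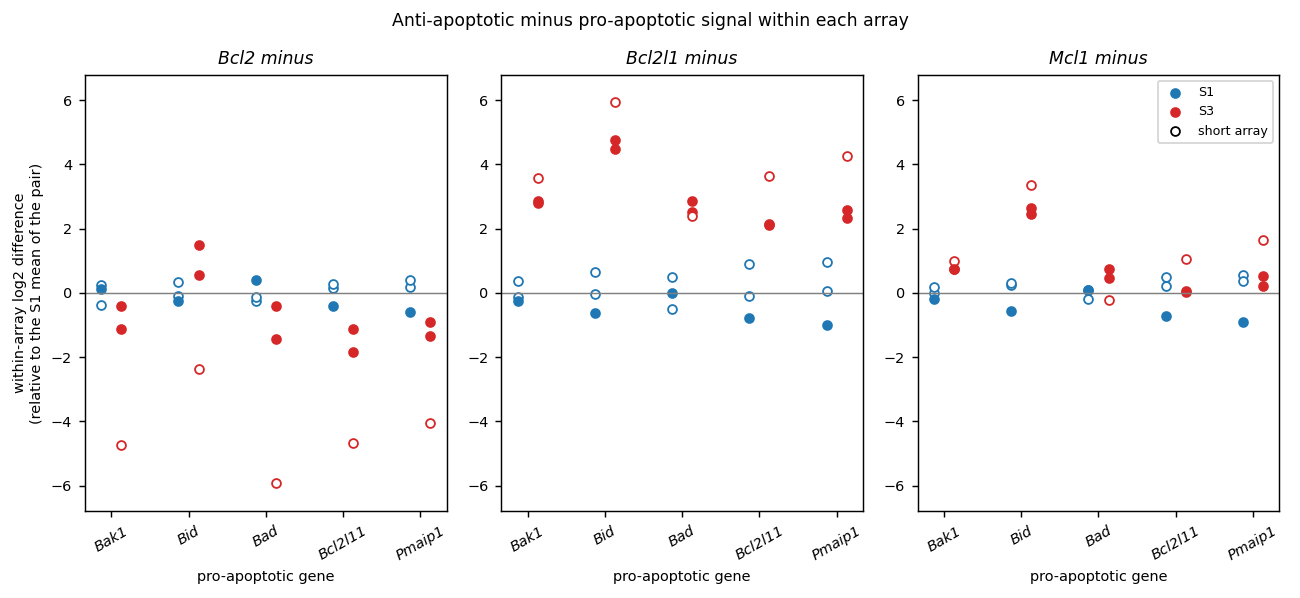
Log2 signal of Bcl2, Bcl2l1 or Mcl1 minus that of each of 5 pro-apoptotic genes on the same array, drawn relative to the S1 mean of the pair (y axis). Blue is S1, red is S3, open points are short arrays. All S3 points of the 5 Bcl2l1 pairs lie above their S1 points, with the widest shift, 5.06, against Bid. Bcl2 is drawn as deposited, under background on 2 of the 3 S3 arrays.

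Lists of other Bcl-2 family genes, of genes downstream of the pore and of upstream regulators were read from the same fit, each gene by its brightest tested probe set. Over the 11959 genes read that way, 2.02% were called higher and 9.62% lower. Of 12 tested genes among 18 other Bcl-2 family members, 0 were called by limma in either direction, and 1 had an unadjusted p under 0.05. That was Bcl2l15, a little-studied relative, at 2.84, 4.52 and 5.78 in S1 and 6.96, 6.18 and 6.62 in S3. The subsets did not overlap, and its log2 change of 2.21 ± 0.74 (SE) was not called (adjusted p = 0.120). It was called with median centring (adjusted p = 0.0206). Bcl2l2, the protector Bcl-w, came next (-0.83 ± 0.44, adjusted p = 0.339). The 12 genes, each by its brightest probe set, had a median log2 change of -0.15. That of all 27022 tested probe sets, a set with every probe set of a gene kept, was -0.24.

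Downstream of Bax and Bak1, 2 of 15 tested genes were called lower and 0 higher, with a list median of -0.38. Over all genes 9.62% were called lower, so that 2 of 15 is near the background. Both encode proteins that leave mitochondria in apoptosis. Endog, a mitochondrial nuclease, read 9.50, 9.66 and 9.38 in S1 and 7.82, 7.87 and 7.43 in S3, and its change was -1.81 ± 0.21 (SE, adjusted p = 0.00566). Aifm1, the apoptosis-inducing factor, read 9.12, 9.05 and 9.35 in S1 and 8.42, 8.20 and 8.34 in S3, with a change of -0.85 ± 0.19 (adjusted p = 0.0356). Aifm1 lost its call in 11 of 17 other fits (adjusted p up to 0.309, with median centring), and Endog in none. Without overlap, 6 of the 15 genes lay lower in S3 and 1 higher, beside 22.9% and 5.39% of all tested probe sets. With short and long arrays as a block 6 were called lower and 0 higher, beside 28.2% and 4.16% of all tested probe sets.

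Among 15 tested upstream regulators, 1 was called higher and 1 lower, beside 2.02% and 9.62% over all genes. The list median was -0.13. Pim1, a survival kinase induced by Stat5, read 8.79, 8.67 and 8.84 in S1 and 9.97, 9.97 and 10.12 in S3, and rose by 1.25 ± 0.14 (SE, adjusted p = 0.00511). Stat5a, the transcription factor activated by the erythropoietin receptor, read 9.52, 9.51 and 9.83 in S1 and 7.54, 6.32 and 6.76 in S3, with a change of -2.74 ± 0.33 (adjusted p = 0.00587). Neither overlapped. Pim1 lost its call in 1 of 17 other fits (adjusted p = 0.0501 with no intensity trend) and Stat5a in none. Second probe sets gave 2.42 for Pim1 and -2.09 for Stat5a. Epor, named after its values were seen, differed mainly between short and long arrays (5.90, 5.41 and 8.34 in S1 and 8.77, 5.35 and 8.24 in S3, log2 change 0.90 ± 1.05, adjusted p = 0.719).

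**Figure D4:**
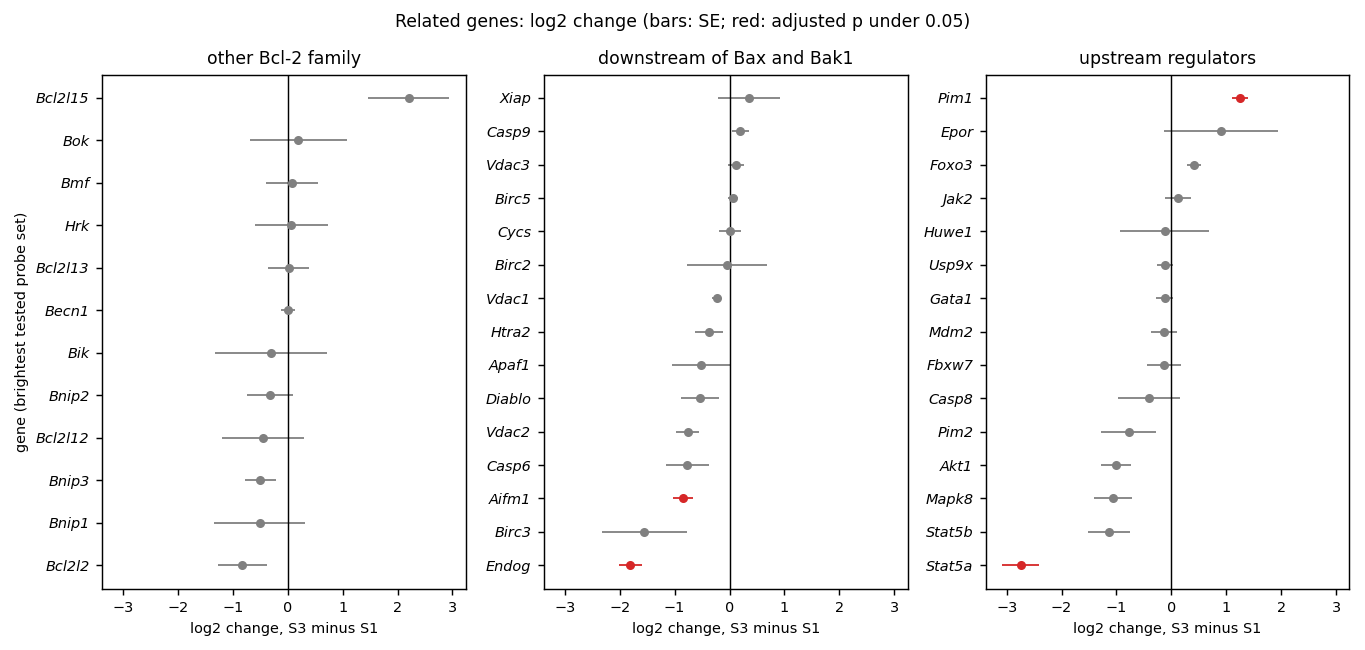
Log2 change, S3 minus S1 (x axis; bars are SE), of 42 related genes in 3 lists, each by its brightest tested probe set. Red points passed an adjusted p of 0.05: Pim1 higher, and Stat5a, Endog and Aifm1 lower.

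Over the 6 arrays, the genes whose brightest probe sets followed that of Bcl2l1 most closely were Atp6v0a1, a subunit of the vacuolar proton pump (Pearson's r = 0.995), Zfand6 (0.990), Ank1, the red cell ankyrin (0.990), C1qtnf4 (0.988) and Slc2a1, a glucose transporter (0.987). Of 11958 genes, 59 had an r over 0.95. For Bcl2l11 the closest were Nars2, Trmt11, Rnf41, 4933427D14Rik and Tgds (r from 0.997 to 0.999), and 611 genes had an r over 0.95. These 6 values share the same arrays, subsets and short or long class, so r describes a common profile only.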

How the data were processed

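RNA of sorted cells was amplified, labelled with biotin and hybridised to whole-genome mouse arrays, and signals were made with MAS5 and divided by 3 reference probe sets, per the design text deposited with the series. The MAS5 version and scaling target are not given. Values were used as log2 signals, as deposited; they reach below 0, and base 2 is an assumption from their range, since the log base is unstated.

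Probe sets were named by the platform annotation where it gave 1 symbol (34945 of 45037). The difference of S3 from S1 came from limma (version 3.58.1 in R 4.3.3; moderated by eBayes with a trend on intensity, two-sided) over 27022 probe sets above the 40th percentile of mean signal, with Benjamini-Hochberg adjustment over all of them. Every probe set was kept, not 1 per gene. The fit was tested on simulated data. An at-least fold compares the S1 mean with the S3 mean after each S3 signal under background was set to background. The number of arrays limits the precision.

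Members, related lists, markers and the short and long classes were chosen with earlier results of these data known. Named genes were all members, up to 5 called genes of each related list by smallest p (2 of them in a list with no call), and the 5 genes most correlated with Bcl2l1 and with Bcl2l11. Other genes are named for a check. Alternatives were other scalings, filters, trends, a floor at background, 1 probe set per gene, blocks and leaving out each array.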

Additional observations from a re-analysis of the deposited data

How the results depend on the processing

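The calls of 1426191_a_at and 1420887_a_at (Bcl2l1) and of 1417045_at (Bid) held in every alternative run for them. Over all tested probe sets 2237 were called; this was 1396 with no intensity trend (2 related genes in place of 4), 8743 with short and long arrays as a block (12 member probe sets in place of 5, and 19 related genes), 4256 with this block and median centring (8 member probe sets), and 451 to 1699 leaving out 1 array (3 to 4 member probe sets). With 1 probe set per gene 2 members were called, as fewer were tested. Same-numbered arrays of S1 and S3 had deviations that correlated at 0.02, 0.39 and 0.41, so that the numbers were not taken to pair them. With the replicate block the counts were 2942 probe sets, 5 of them members, and 6 related genes, and the block changed no member's call. Some uncalled changes turned sign. With the short and long block these were 1416880_at of Mcl1 (-0.0083), 1425716_s_at of Bak1 (-0.36) and 1456005_a_at of Bcl2l11 (-0.49, or -0.039 with median centring too), and with median centring added both Bad probe sets (0.33 and 0.43). Leaving out 1 array gave -0.70 to 0.025 for 1416583_at of Bad, -0.28 to 0.99 for 1425716_s_at, -1.69 to 0.16 for 1426334_a_at and -0.23 to 0.79 for 1456005_a_at of Bcl2l11. For Mcl1 it gave -0.030 to 0.071 (1437527_x_at), -0.019 to 0.31 (1448503_at), -0.011 to 0.087 (1456243_x_at) and -0.011 to 0.18 (1456381_x_at). For Bcl2 minus Bid it gave -0.91 to 1.02, and raising signals to background, an alternative chosen after seeing the data, gave 1.28. Of the 15 pairs 11 did not overlap as deposited, 10 with the mean over probe sets, and 11 when raised to background, where Bcl2 minus Pmaip1 overlapped and Bcl2 minus Bid no longer did. The cause was not tested. Bcl2 in S3, Bbc3 and 1426050_at of Bcl2l1 are limited by signal at or under background.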
